A study of Bos taurus with 8 samples.

Results

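The prion gene locus of cattle lies on chromosome 13 and holds the prion protein gene and, downstream of it, the gene of its paralogue doppel. Its members were the loci of the deposited table that carry a transcript identifier and touch the window from 47380000 to 47470000 of chromosome 13 (UMD3.1), and 2 of the 24886 loci with an identifier met this rule. The window was set by position, and no expression value entered the rule. The levels come from RNA-Seq of 8 cattle tissues, with 1 library each of whole testes, frontal cortex, nucleated blood cells, mammary parenchyma, uterus (intercaruncular, the lining between the caruncles), and, from the gut, rumen (a forestomach), abomasum (the true stomach) and ileum. The labels give the tissue of each library and no treatment, age, sex or animal. The study took the tissues of its methylation assay from a Hereford cow and her relatives at several stages of development, with a juvenile frontal cortex, and generated RNA-Seq for 8 of those tissues, without giving the animals of the RNA libraries. Whole testes is a male tissue and uterus a female one. Tissue, animal, sex and age therefore cannot be told apart, and no difference between tissues has a replicate check. Because RNA was extracted from homogenized samples, fewer cells that use a gene and less RNA per cell also cannot be told apart.

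The prion protein is a glycoprotein held on the outer face of the cell membrane by a lipid anchor. It binds copper, is abundant in neurons, and is the protein whose misfolded form accumulates in bovine spongiform encephalopathy and scrapie. Doppel is a related membrane-anchored glycoprotein whose gene arose by duplication. It lacks the copper-binding repeats of the prion protein, is known from the testis, and is required for male fertility in mice.

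The table gives identifiers without gene symbols, so each locus was told from the other by its order and span alone. The first locus, ENSBTAT00000040292, runs from 47400413 to 47418582 on chromosome 13 and spans 18170 bases. The second, ENSBTAT00000014624, runs from 47444352 to 47449390 and spans 5039 bases. RefSeq (assembly ARS-UCD2.0) lists PRNP, the prion protein gene, with a span of 20232 bases, and next to it PRND, the doppel gene, with a span of 5039 bases. The 2 loci were 25769 bases apart in the table, against 25838 bases between PRNP and PRND in RefSeq. The locus that follows began 40072 bases further on, against 40082 bases from PRND to RASSF2 in RefSeq. The first locus is called PRNP and the second PRND from here on. Exons and untranslated regions are not given in the table. The window held 0 loci without an identifier, and so did the 100000 bases on either side.

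**Figure D1:**
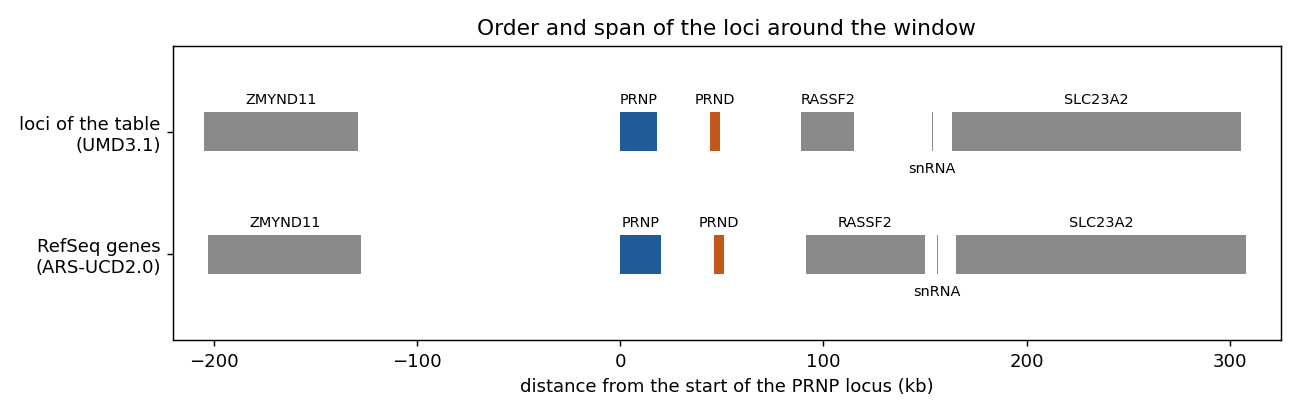
Loci of the table around the window (upper row) and the RefSeq genes at the same places (lower row), drawn as bars from start to end, with the distance from the start of the PRNP locus in kilobases on the x axis. The spans of PRND are 5039 bases in both rows, and the RASSF2 bar is shorter in the table (26215 bases) than in RefSeq (58990 bases).

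To show where each gene of the pair was transcribed, its FPKM (mapped fragments corrected for the length of the transcript and the size of the library) was taken in all 8 libraries. PRNP was measured in every tissue, and its level was highest in frontal cortex and lowest in nucleated blood cells. PRND was highest in whole testes, the only tissue in which it reached 1 FPKM.

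For PRNP the FPKM was 102 in frontal cortex, 20.2 in whole testes, 18.4 in rumen, 17.9 in uterus, 15.4 in mammary parenchyma, 13.1 in ileum, 8.50 in abomasum and 3.34 in nucleated blood cells. Frontal cortex stood apart at the upper end, nucleated blood cells lay lowest, and the 5 tissues from whole testes to ileum lay within 13.1 to 20.2 FPKM. Frontal cortex held 51.2% of the FPKM of PRNP summed over the tissues. The level in frontal cortex was 5.03 times that in whole testes, 11.9 times that in abomasum and 30.4 times that in nucleated blood cells. The order of the tissues between these ends depended on the scaling of the libraries. When each library was rescaled to the same sum of FPKM, with mitochondrial loci left out, rumen fell from 18.4 to 10.6 FPKM and only 3 of the 8 tissues kept their rank, with frontal cortex still highest and nucleated blood cells still lowest.

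For PRND the FPKM was 13.3 in whole testes, 0.247 in mammary gland, 0.0980 in rumen, 0.0292 in ileum and 0.0271 in uterus. It was listed at 0 in frontal cortex, abomasum and nucleated blood cells. Whole testes held 97.1% of the summed FPKM of PRND. The level there was 53.9 times that in mammary gland, the next tissue by listed FPKM. Frontal cortex, where PRNP was highest, was thus among the tissues in which PRND was listed at 0.

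**Figure D2:**
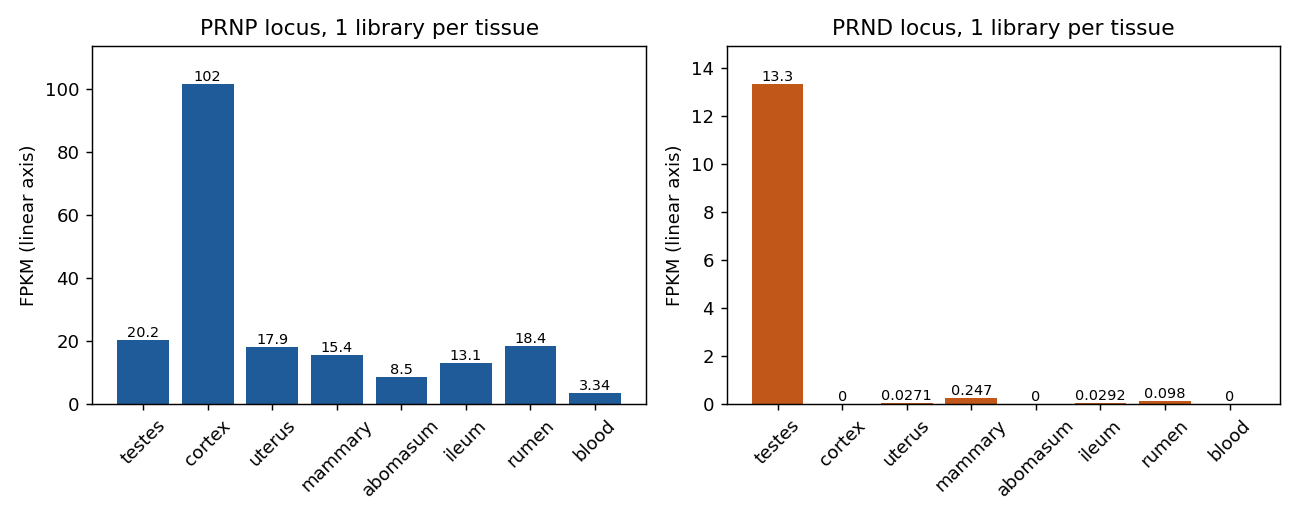
FPKM of PRNP (left) and PRND (right) in the 8 libraries, on linear axes that start at 0, with the value printed over each bar. PRNP reaches 102 FPKM in frontal cortex and 3.34 to 20.2 FPKM elsewhere, while PRND reaches 13.3 FPKM in whole testes and at most 0.247 FPKM elsewhere; there is 1 library per tissue, so no error bar can be drawn.

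The low values of PRND were then set against the number of reads they could stand for. The table gives no read counts. The depth of each library was recovered from the steps between FPKM values of short loci without an identifier. The recovered depths ran from 6059000 to 15583000 reads. For each library this is the smallest depth that gives whole reads. Multiples of it would do so too, and the multiple may differ between libraries. At this depth, and for a transcript as long as the PRND locus (5039 bases), the value in whole testes stood for 694 reads (two-sided 95% Poisson interval 643 to 747). It stood for 7.54 reads in mammary gland (3.15 to 15.1) and 7.69 reads in rumen (3.26 to 15.4). In ileum it stood for 1.11 reads, and in uterus for 1.39 reads. These numbers are estimates, smaller for a shorter transcript and larger for a greater depth, and the intervals cover counting error only.

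A count of 0 allows up to 3 reads as a one-sided 95% limit, or 3.69 reads by the two-sided interval used above. The FPKM of 3 reads was taken at the recovered depth and for a transcript as long as the PRND locus. It was 0.0382 in rumen, 0.0443 in abomasum, 0.0493 in nucleated blood cells and 0.0586 in uterus. In frontal cortex it was 0.0640, in ileum 0.0791 and in mammary gland 0.0983. These limits are higher for a shorter transcript and lower for a greater depth. At the recovered depth, the values of PRND in uterus and ileum lay under the limit of their own libraries, which a greater depth could reverse. The minimum sequence yield that the paper states per library stands for more reads than the recovered depth. The share of RNA-Seq reads that mapped is not given in its text. A difference in PRND among uterus, ileum, frontal cortex, abomasum and nucleated blood cells was therefore not detectable at the recovered depth. In mammary gland, with the smallest recovered depth, the interval ran from 0.103 to 0.496 FPKM. In rumen, with the largest, it ran from 0.0415 to 0.196 FPKM. These intervals overlapped as deposited and after the median-ratio rescaling. They did not after the same-sum rescaling (0.124 to 0.596 FPKM in mammary gland and 0.0239 to 0.113 FPKM in rumen). As deposited, the intervals of uterus (0.00166 to 0.122 FPKM) and ileum (0.00101 to 0.152 FPKM) overlapped both. The order of mammary gland, rumen, ileum and uterus is therefore uncertain.

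**Figure D3:**
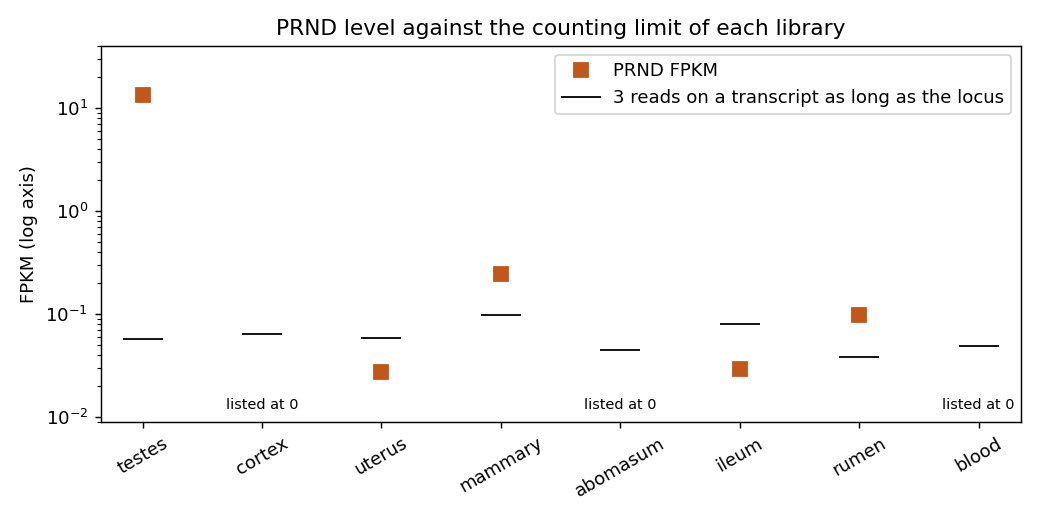
PRND FPKM in each library (squares, log axis), with the FPKM that 3 reads would give at the recovered depth on a transcript as long as the locus (dashes). Whole testes lies at 13.3 FPKM, mammary gland and rumen lie above their dashes, uterus and ileum lie below theirs, and 3 tissues are listed at 0.

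Reading both genes against all others showed how common each pattern is. PRNP reached 1 FPKM in all 8 tissues, as did 35.8% of the 24886 genes. PRND reached 1 FPKM in whole testes and no other tissue, as did 5.83% of genes. Among the 8918 genes that reached 1 FPKM in every tissue, 289 (3.24%) were highest in frontal cortex and lowest in nucleated blood cells, and PRNP was 1 of them.

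Within each library the 2 genes held different places. In frontal cortex, 95.9% of genes had a lower FPKM than PRNP. In the other libraries this share was 81.7% (uterus), 81.0% (rumen), 79.7% (mammary gland), 77.3% (whole testes), 76.2% (ileum), 69.4% (abomasum) and 62.3% (nucleated blood cells). Counting only genes that reached 1 FPKM in a tissue, PRNP was above 94.2% of them in frontal cortex and above 46.3% in nucleated blood cells, so that it fell below the median gene in the latter. PRND stood above 71.1% of genes in whole testes and above 35.8% to 42.3% in uterus, ileum, mammary gland and rumen, where many genes are listed at 0. Among genes that reached 1 FPKM in a tissue, it stood above 58.8% in whole testes and above 11.5% (uterus), 12.5% (ileum), 18.6% (mammary gland) and 19.2% (rumen).

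**Figure D4:**
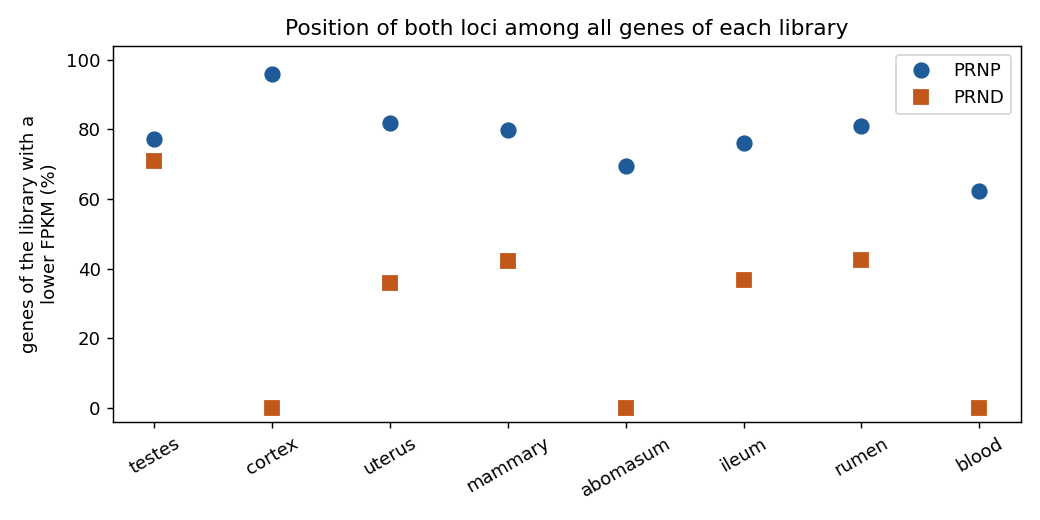
Share of genes of the same library with a lower FPKM, in percent, for PRNP (circles) and PRND (squares) in the 8 tissues. PRNP lies at 95.9% in frontal cortex and at 62.3% in nucleated blood cells, and PRND lies close to PRNP only in whole testes (71.1% against 77.3%).

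Both genes were then placed by how far their highest tissue stood above the next, as the ratio of FPKM + 1, which understates the difference for low genes. A gene was called enriched where this ratio was at least 5 and its level at least 1 FPKM. PRND passed with a ratio of 11.5 in whole testes, where 6.61% of genes are enriched by this rule. Of the 5392 genes highest in whole testes, 991 had a larger ratio than PRND. With 0.1 or 0.01 in place of 1 added to each FPKM, the ratio of PRND was 38.7 or 51.9, and 922 or 1036 genes had a larger one. PRNP had a ratio of 4.84 in frontal cortex, just under the threshold, where 2.41% of genes are enriched. Of the 2793 genes highest in frontal cortex, 624 had a larger ratio than PRNP, and the median ratio was 1.93.

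The call for PRNP changed with the scale and the scaling. With 0.1 in place of 1 added to each FPKM the ratio was 5.01, and with the libraries rescaled by the median ratio of widely expressed genes it was 5.70, both past the threshold. Without the whole testes library, the next tissue after frontal cortex, it was 5.30. With libraries rescaled to the same sum it was 4.42. The direction, with frontal cortex highest, was the same in each of these settings.

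**Figure D5:**
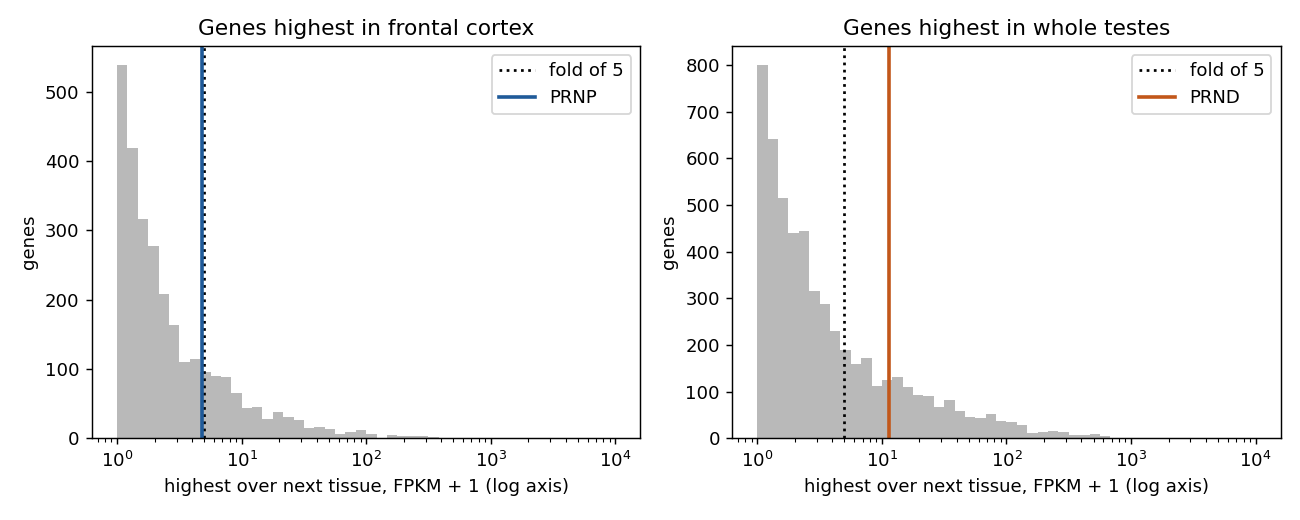
Ratio of the highest to the next tissue on the FPKM + 1 scale (log x axis) for the 2793 genes highest in frontal cortex (left) and the 5392 genes highest in whole testes (right), as counts of genes per bin. The coloured lines mark PRNP at 4.84, just left of the dotted threshold of 5, and PRND at 11.5, to the right of it.

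The tau index, which runs from 0 for an even level over tissues to 1 for a single tissue, separated the pair. On log2(FPKM + 1) it was 0.441 for PRNP, close to the median of 0.436 over the 17484 genes that reached 1 FPKM in a tissue. For PRND it was 0.980, higher than in 92.7% of those genes. By this index PRNP was a broadly used gene of ordinary unevenness, and PRND was among the more tissue-restricted ones. The value for PRNP rested on frontal cortex, without which it was 0.178.

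Since FPKM is per length, the levels of the 2 genes can be compared within a library. In whole testes the FPKM of PRND was 65.9% of that of PRNP. It was 1.60% in mammary gland, 0.534% in rumen, 0.224% in ileum and 0.151% in uterus. Outside whole testes, PRND was thus far below PRNP in each library in which it was above 0. PRNP in whole testes, at 20.2 FPKM, was at the same time its second highest level of all tissues, although the next value, 18.4 FPKM in rumen, was near. This second place was lost under the same-sum rescaling, where uterus (25.9 FPKM) stood above whole testes (22.7 FPKM).

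The traces of PRND outside whole testes were compared with those of the 1644 other genes enriched in whole testes. In mammary gland 45.4% of these genes were above 0, and PRND, at 1.85% of its testes level, exceeded 77.4% of them. In rumen 39.7% were above 0, and PRND, at 0.736% of its testes level, exceeded 74.2%. In frontal cortex, where PRND was listed at 0, 54.9% of these genes were above 0. A level above 0 in mammary gland or rumen and a 0 in frontal cortex were thus both frequent among these genes. The rule that picked them favours low levels outside whole testes, and they were not matched to PRND for level or length.

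The 2 genes are neighbours, and their highest tissues differ. Among 7808 pairs of neighbouring loci at most 30000 bases apart, both reaching 1 FPKM in a tissue, 74.1% of pairs were highest in different tissues. In 9.18% of pairs 1 locus was highest in frontal cortex and the other in whole testes, as for PRNP and PRND. Over the 8 tissues, the Pearson r between the log2(FPKM + 1) levels of the 2 genes was 0.0968, as a description over libraries that were scaled together.

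Finally, the genes with the most similar profile were found by Pearson r of log2(FPKM + 1) over the 8 tissues, given as a description. For PRNP the nearest was ENSBTAT00000031159 on chromosome 19 (51470039 to 51472460), with r = 0.992. Its FPKM was 99.1 in frontal cortex, 16.9 in rumen, 16.3 in uterus, 16.0 in whole testes, 13.8 in mammary parenchyma, 8.05 in ileum, 6.96 in abomasum and 1.45 in nucleated blood cells. Its levels lay close to those of PRNP in most tissues, with the largest relative gap in nucleated blood cells. It was the only gene of 17483 with an r of at least 0.99, and 33 had an r of at least 0.95. The next was ENSBTAT00000017485 on chromosome 18 (53874463 to 53897974), with r = 0.981, 30.4 FPKM in frontal cortex and 5.55 FPKM in whole testes, and listed at 0 in nucleated blood cells.

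For PRND the nearest were ENSBTAT00000021447 on chromosome 21 (59199306 to 59212335) and ENSBTAT00000056287 on chromosome 16 (44448851 to 44478499), both with r over 0.99. Their FPKM in whole testes was 25.8 and 13.7, and in mammary gland 0.220 and 0.207. They share with PRND a high value in whole testes and a trace in mammary gland. Such a profile was common, with 1000 genes at an r of at least 0.99, since 1 high library fixes the correlation. The named genes changed with the measure: by Spearman rho, 0 of the 2 were again the nearest for either gene.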

How the data were processed

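RNA-Seq libraries of 8 cattle tissues were grouped by their labels, 1 library per tissue. Per the methods, the authors filtered single-end reads, aligned them to UMD3.1 with TopHat (TopHat2 2.0.13 in the submitters' processing notes) and estimated levels with Cufflinks at default parameters. The deposited values are FPKM, scaled between libraries by the authors' software. The remaining columns hold the authors' comparisons (log2 fold changes, test statistics, p-values) and were not used, apart from the status of each estimate: PRNP had a valid one in all 28 pairs of tissues, PRND in 7, with too little signal for a test in 21. File starts count from 0 and are printed from 1.

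The members, gene lists and rules were chosen with earlier results of these data known. With 1 library per tissue no test was run. Depth was recovered from loci of 88 to 130 bases without an identifier, assuming fragment lengths with a mean of 200 and an SD of 80 bases and none under 87 bases, as the smallest depth that gave whole reads (within 0.03) for at least 95% of them. It is approximate, multiples of it would fit as well, and it is scaled by the authors' software. Named were the members, the loci beside the window and, per member, the 2 most similar genes, compared over genes reaching 1 FPKM in a tissue. As 0 identifiers matched RefSeq, preset lists of tissue markers and of prion protein partners are not analysed here, and tissue labels were not checked against markers. Functions were checked on simulated data. Python 3.11.15, numpy 2.4.6, pandas 2.3.3, scipy 1.17.1 and matplotlib 3.10.9 were used. Alternatives covered scaling, pseudocounts, thresholds, gene sets, likeness measures and left-out tissues.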

Additional observations from a re-analysis of the deposited data

How the results depend on the processing

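A level, count, tau or share of enriched genes was taken to hold within 1.5 times its reported value, a ratio on its side of 5, and the share of genes with a lower FPKM in a library within 5 points. Causes of changes were not tested, unless stated here. No paired analysis was possible because there was a single library for every tissue.

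Of 26 rescaled levels above 0, 24 held. The same-sum rescaling gave 10.6 FPKM for PRNP and 0.0564 FPKM for PRND in rumen, and 3 tissues of PRNP kept their rank. The ratio of the highest to the next tissue for PRNP was 5.01 and 5.02 with pseudocounts of 0.1 and 0.01, and 5.70 with the median-ratio rescaling. With each tissue left out in turn, an alternative added for this ratio after the data had been seen, it ran from 1.10 (without frontal cortex) to 5.30 (without whole testes) for PRNP and from 1.14 (without whole testes) to 13.0 (without mammary gland) for PRND. The tau of PRNP ran from 0.178 to 0.458. By construction, a fold of 2 enriched 12.7% of genes in whole testes and 5.40% in frontal cortex, a fold of 10 enriched 4.35% and 1.23%, a fold of 2 enriched both members, 2 in place of 1, and the window widened by 100000 bases on each side held 5 loci. Of the 2 most similar genes, 1 was again found for PRNP with a pseudocount of 0.1, 0 by Spearman rho for PRNP and for PRND, and 0 to 1 without frontal cortex or whole testes for either. The share of genes with a lower FPKM in a library moved by over 5 points in 20 of 26 alternatives above 0, as the gene set changes by construction. The ratio of PRND to PRNP within a library does not depend on scaling.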

Other observations

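The loci beside the pair are given next, and their names rest on order in RefSeq alone. The locus at the place of ZMYND11, a reader of histone methylation, lay between 18.2 and 36.9 FPKM in all 8 tissues, highest in frontal cortex, as was PRNP, with uterus next at 34.4 FPKM. The locus at the place of RASSF2, which encodes a Ras-binding protein, was highest in nucleated blood cells at 31.1 FPKM, where PRNP was lowest, followed by ileum at 11.3 FPKM, and it was lowest in rumen at 1.01 FPKM. It spans 26215 bases in the table and 58990 in RefSeq, so it may cover part of the gene. The locus at the place of SLC23A2, a vitamin C transporter, was also highest in frontal cortex, at 9.30 FPKM, with 2.98 to 5.34 FPKM elsewhere. The small nuclear RNA locus between them, 107 bases long, was listed at 0 in all 8 libraries.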
